A study of Homo sapiens with 18 samples.

Results

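The genes described here are 10 regulators and feedback genes of TGF-beta signalling, of 17026 endogenous genes measured in 3 human pancreatic ductal adenocarcinoma cell lines. They are the receptors TGFBR1 and TGFBR2, the signal carriers SMAD2 and SMAD3, the inhibitors SMAD7 and PMEPA1, the co-repressors SKIL, TGIF1 and TGIF2, and the secreted matrix protein TGFBI. They were chosen by name, and TGIF2 and PMEPA1 were already known to be lower with THZ1 in these data. Differences between THZ1 and DMSO are therefore given for all 10 as a description, without a test. All 10 were in the deposited table and all 10 passed the filter on low values.

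Polyadenylated RNA was sequenced after 6 h with 100 nM THZ1 or with its solvent DMSO, in MIA PaCa-2, BxPC-3 and PANC-1 cells, 3 libraries in each of the 6 groups and 18 in all. THZ1 covalently inhibits CDK7, a kinase of the basal transcription machinery, and reacts with CDK12 and CDK13 as well. Each line descends from the tumour of a single patient and was grown alone as a bulk culture, so that fewer cells and less RNA per cell cannot be told apart. All groups shared a medium with serum, and no added TGF-beta is named in the labels' protocols.

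TGF-beta ligands bind the type II receptor TGFBR2, which activates the type I receptor TGFBR1. TGFBR1 phosphorylates SMAD2 and SMAD3, which join SMAD4 and enter the nucleus to regulate transcription. Target genes include brakes on the pathway itself, among them SMAD7, PMEPA1 and SKIL. In pancreatic cancer the pathway is often lost through deletion or mutation of SMAD4 or of a receptor gene.

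Values below are the deposited values multiplied by 1 constant so that the mean library sums to 1000000. Differences are on the scale log2(value + 1), which understates the change of low genes. Libraries held 6352482 to 20910423 reads, and a value of 1 stood for 6.34 to 24.7 reads. PANC-1 DMSO replicate 1 stood apart, with the fewest reads and a residual SD around its group mean of 0.52 on the log2 scale. In the other 17 libraries that SD was 0.10 to 0.31. The PANC-1 values of the 10 genes with THZ1, and several of the DMSO differences, are therefore given with and without this library. Other DMSO differences with PANC-1 include it. Of 8 listed ductal markers 7 were in the table. Their summed value was 8449 to 8833 with THZ1 and 4402 to 4769 with DMSO in BxPC-3, 3668 to 4008 and 1819 to 1928 in MIA PaCa-2, and 2705 to 3324 and 2451 to 4161 in PANC-1. The epithelial cadherin CDH1 was nearly absent in MIA PaCa-2, at 0.161 with THZ1 and 0.179 with DMSO, and low in PANC-1, at 2.98 and 3.31. KRT7 was uneven too, averaging 0.915 in MIA PaCa-2, 4.20 in PANC-1 and 1976 in BxPC-3 with DMSO. KRT8 alone made up most of the sum in MIA PaCa-2, averaging 1424 with DMSO, and averaged 1912 in PANC-1. The part of these markers in the results was not tested. The median difference of THZ1 minus DMSO over all tested genes was 0.19 in MIA PaCa-2, 0.25 in BxPC-3 and -0.07 in PANC-1 at the deposited scaling. ERCC spike-ins, external RNA added after extraction, gave medians of -0.85, -0.64 and -0.31 when the libraries were set to equal spike-in sums. Where this ERCC scale turns a called difference, or a difference of the 10 genes, the value is given.

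Without THZ1 the 3 lines carried the pathway in very different forms. MIA PaCa-2 had almost no TGFBR2 RNA, BxPC-3 had almost no SMAD4 RNA, and PANC-1 had both. These levels were tested with limma over all 15354 genes that passed the filter. The DMSO libraries also enter the differences with THZ1 that were known for TGIF2 and PMEPA1 when the genes were chosen. The DMSO p-values of TGIF2 and PMEPA1, and the counts below that include them, are therefore not independent of the choice. In MIA PaCa-2 minus BxPC-3, 2 of the 10 genes were higher and 7 lower, where 37.5% of all tested genes were higher and 25.1% lower, 62.6% in all. In PANC-1 minus BxPC-3, 3 were higher and 5 lower, against 33.7% and 25.4% of all genes, 59.1% together. In PANC-1 minus MIA PaCa-2, 5 were higher and 3 lower, against 28.0% and 32.8%, together 60.8%. Each group of DMSO libraries enters 2 of the 3 comparisons.

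TGFBR2, the receptor that binds the ligand, had 25.6, 48.3 and 56.6 in PANC-1 DMSO libraries, 0.364, 0.270 and 0.0589 in MIA PaCa-2 and 99.0, 93.2 and 95.3 in BxPC-3. No 2 lines overlapped. The MIA PaCa-2 values rest on 15 reads over 3 libraries. The ratio of MIA PaCa-2 over BxPC-3 in pooled reads was 0.00259 (95% interval 0.00145 to 0.00428, for counting error only). It takes the recovered counts as true reads. No recovered count of any gene was under 1, and whether 1 had been added to each is not known. All 3 differences passed the test: -6.31 for MIA PaCa-2 minus BxPC-3 (SE 0.20, limma adjusted p = 6.25e-14), -1.20 for PANC-1 minus BxPC-3 (adjusted p = 7.42e-05) and 5.11 for PANC-1 minus MIA PaCa-2 (adjusted p = 1.53e-12). Without PANC-1 DMSO replicate 1 the 2 differences with PANC-1 were -0.86 and 5.44 (limma adjusted p = 8.13e-07 and 7.76e-21). In MIA PaCa-2 with THZ1 the gene stayed at this low level, with 4, 3 and 2 reads in its 3 libraries.

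TGFBR1, the receptor kinase that acts on the SMADs, varied less. It had 8.68, 22.7 and 26.2 in PANC-1, 32.8, 36.3 and 36.8 in MIA PaCa-2 and 37.9, 33.5 and 33.1 in BxPC-3 with DMSO. PANC-1 lay below the other lines in every library. The differences of PANC-1 from BxPC-3 and MIA PaCa-2 were -0.96 and -0.98 (SE 0.25, limma adjusted p = 0.00351 and 0.00294). With only the groups compared in the fit, those adjusted p were 0.0861 and 0.0795 and the calls were lost. Without PANC-1 DMSO replicate 1 the differences were -0.49 and -0.51 (adjusted p = 9.45e-05 and 5.92e-05). MIA PaCa-2 and BxPC-3 overlapped and differed by 0.02 (adjusted p = 0.953).

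SMAD4 is no member of the set but is the partner its SMADs need. BxPC-3 is known to carry a homozygous deletion of it, so its level checks the line labels. With DMSO it had 12.6, 24.4 and 24.0 in PANC-1, 62.1, 60.4 and 61.9 in MIA PaCa-2 and 3, 1 and 4 reads in the BxPC-3 libraries. The ratio over BxPC-3 in pooled reads was 154 for PANC-1 (95% interval 78.0 to 358) and 422 for MIA PaCa-2 (214 to 978). These ratios, too, take the recovered counts as true reads. The limma differences were 4.17 for PANC-1 minus BxPC-3, 5.77 for MIA PaCa-2 minus BxPC-3 and -1.61 for PANC-1 minus MIA PaCa-2 (SE 0.18, adjusted p = 4.08e-12, 4.46e-14 and 7.99e-07). Without PANC-1 DMSO replicate 1, PANC-1 minus BxPC-3 was 4.46 and PANC-1 minus MIA PaCa-2 was -1.31 (limma adjusted p = 1.1e-19 and 5.27e-10).

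SMAD3, which carries the signal to DNA, was the higher of the receptor-activated pair in each line per kilobase of transcript. With DMSO its value per kilobase was 320.4 in PANC-1, 101 in MIA PaCa-2 and 229.8 in BxPC-3, where SMAD2 had 4.60, 8.11 and 4.98. These use the median length of the annotated coding transcripts of each gene, 1530 bases for SMAD3 and 10440 for SMAD2. Part of the gap thus comes from the annotated lengths. In scaled value SMAD3 was also higher in each line, by a smaller factor. The scaled value of SMAD3 was 469, 501 and 501 in PANC-1, 157, 159 and 149 in MIA PaCa-2 and 361, 344 and 349.7 in BxPC-3. The lines did not overlap, and all 3 pairs passed the test, with PANC-1 above MIA PaCa-2 by 1.66 (SE 0.06, limma adjusted p = 4.77e-13). SMAD2 ran the other way, with MIA PaCa-2 highest at 77.0, 85.8 and 91.4, against 31.7, 52.4 and 59.9 in PANC-1 and 52.8, 53.9 and 49.3 in BxPC-3. MIA PaCa-2 exceeded BxPC-3 by 0.69 (SE 0.16, limma adjusted p = 0.00119), a call lost with TMM factors (0.47, adjusted p = 0.0642) and with DESeq2 factors (0.48, adjusted p = 0.0668). PANC-1 lay below MIA PaCa-2 by a difference of -0.85 (adjusted p = 2.00e-04) and overlapped BxPC-3 (-0.16, adjusted p = 0.404). Without PANC-1 DMSO replicate 1 these were -0.59 (adjusted p = 1.57e-06) and 0.11 (adjusted p = 0.261).

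The pathway's own brakes and its matrix target were lowest in MIA PaCa-2. SMAD7, which blocks the receptor, had 16.3, 19.8 and 20.7 in PANC-1, 2.02, 1.35 and 1.71 in MIA PaCa-2 and 6.11, 6.95 and 6.97 in BxPC-3. PMEPA1, a membrane protein that sequesters SMAD2 and SMAD3, had 198, 147 and 141 in PANC-1, 44.5, 37.7 and 40.5 in MIA PaCa-2 and 235, 243 and 242 in BxPC-3. TGFBI, a secreted adhesion protein named for its induction by TGF-beta, had 285, 233 and 232 in PANC-1, 13.9, 13.2 and 12.7 in MIA PaCa-2 and 445, 457 and 452 in BxPC-3. None of these 3 genes overlapped between any 2 lines, and every pair passed the test. The size for MIA PaCa-2 minus BxPC-3 was -1.52 for SMAD7 (SE 0.16, limma adjusted p = 4.46e-07), -2.53 for PMEPA1 (SE 0.11, adjusted p = 3.43e-12) and -4.99 for TGFBI (SE 0.08, adjusted p = 4.96e-17). PANC-1 exceeded MIA PaCa-2 by 2.89, 1.95 and 4.13 in the same order of genes (adjusted p = 1.62e-10, 1.52e-10 and 5.02e-16).

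The co-repressors followed no common order. TGIF2, which recruits histone deacetylases to SMAD complexes, had 22.6, 16.9 and 15.5 in PANC-1, 28.2, 24.4 and 27.5 in MIA PaCa-2 and 46.9, 48.8 and 47.6 in BxPC-3, with no overlap. All 3 of its pairs passed the test, from -0.53 for PANC-1 minus MIA PaCa-2 (SE 0.13, limma adjusted p = 0.00214) to -1.35 for PANC-1 minus BxPC-3 (adjusted p = 1.33e-07). Without PANC-1 DMSO replicate 1 these TGIF2 differences were -0.68 and -1.50 (limma adjusted p = 9.41e-06 and 3.59e-11). TGIF1, its close relative, was lowest where TGIF2 was highest: 48.0, 58.2 and 57.7 in PANC-1, 56.0, 56.1 and 54.7 in MIA PaCa-2 and 27.3, 27.3 and 26.0 in BxPC-3. MIA PaCa-2 exceeded BxPC-3 by 1.02 and PANC-1 exceeded it by 0.99 (SE 0.08, adjusted p = 7.33e-09 and 1.30e-08), while PANC-1 and MIA PaCa-2 overlapped (-0.03, adjusted p = 0.766).

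SKIL, the SnoN co-repressor that is degraded when the pathway is switched on, had 26.5, 50.8 and 64.0 in PANC-1, 37.1, 39.2 and 39.1 in MIA PaCa-2 and 63.7, 54.8 and 53.0 in BxPC-3. PANC-1 spread across both other lines. MIA PaCa-2 lay below BxPC-3 by a difference of -0.56 (SE 0.22, limma adjusted p = 0.0343). That call was lost without BxPC-3 DMSO replicate 1 (adjusted p = 0.112) or 2 (0.0583), without MIA PaCa-2 DMSO replicate 1 (0.0833), 2 (0.0639) or 3 (0.0654), with equal totals (0.0575) and on the ERCC scale (0.598). PANC-1 differed from MIA PaCa-2 only without PANC-1 DMSO replicate 1 (0.56, adjusted p = 2.35e-04) and from BxPC-3 only without PANC-1 DMSO replicate 3 (-0.62, adjusted p = 0.0118), among the 18 libraries left out in turn. With all libraries PANC-1 minus BxPC-3 was -0.36 (limma adjusted p = 0.168). Without PANC-1 DMSO replicate 1 it was 0.0012 (adjusted p = 0.994).

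**Figure D1:**
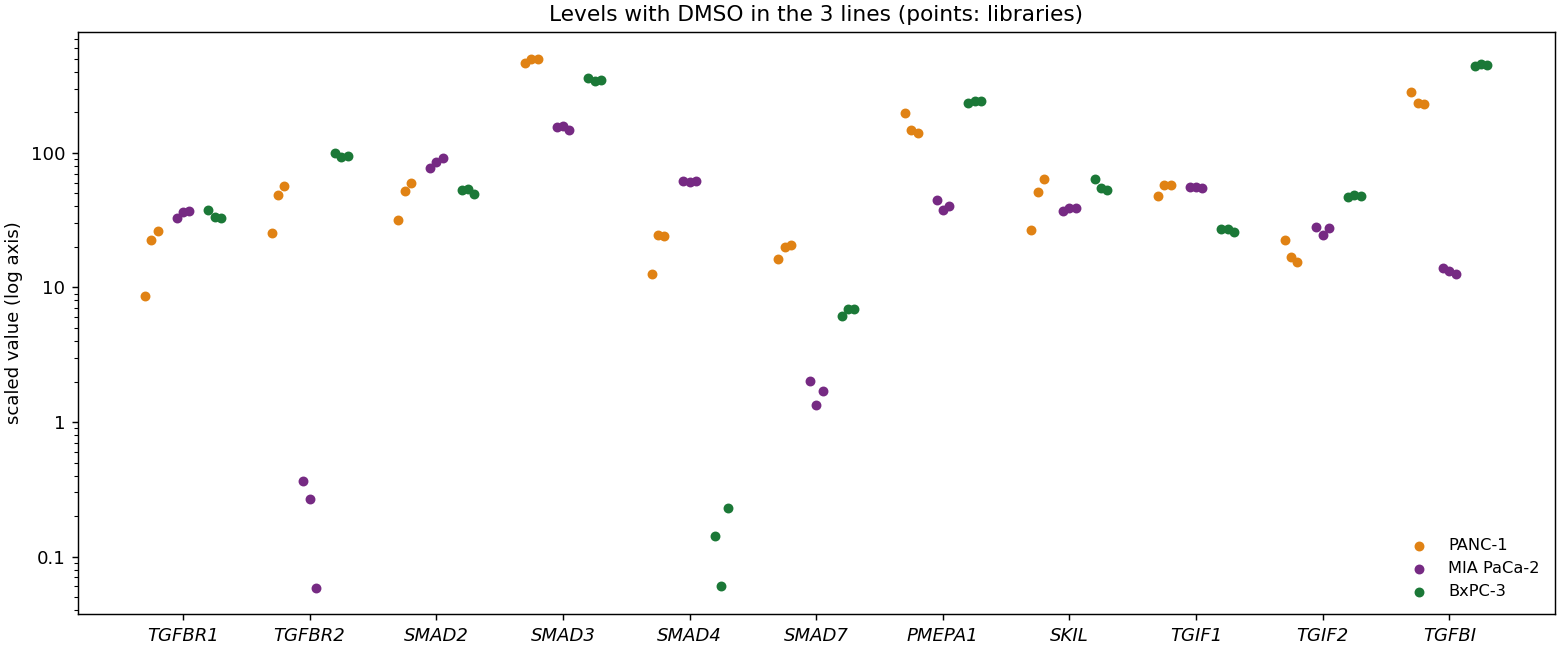
Scaled value (log axis) of the 10 genes and SMAD4 in each DMSO library, with 3 points per line for PANC-1, MIA PaCa-2 and BxPC-3. TGFBR2 lies under 1 in every MIA PaCa-2 library and SMAD4 under 1 in every BxPC-3 library, while TGFBI and PMEPA1 are lowest in MIA PaCa-2.

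With THZ1 the 10 genes did not share a direction. The co-repressor TGIF2 and the feedback inhibitor PMEPA1 were lower in every THZ1 library of BxPC-3 and MIA PaCa-2, as was SKIL, whereas TGFBR1, SMAD2, SMAD3 and TGFBI were higher in every THZ1 library there on the deposited scale. In BxPC-3, 6 genes were higher and 4 lower in all 3 THZ1 libraries than in all 3 DMSO libraries. The same counts over all tested genes were 51.1% higher and 25.0% lower. In MIA PaCa-2 they were 4 and 3 genes (47.6% and 26.2% of all), and in PANC-1 1 and 1 gene (8.34% and 8.73% of all). Since this contrast took part in the choice of the genes, nothing is read from these counts. The median difference over the 10 genes was 0.14 in MIA PaCa-2, 0.22 in BxPC-3 and 0.11 in PANC-1.

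**Figure D2:**
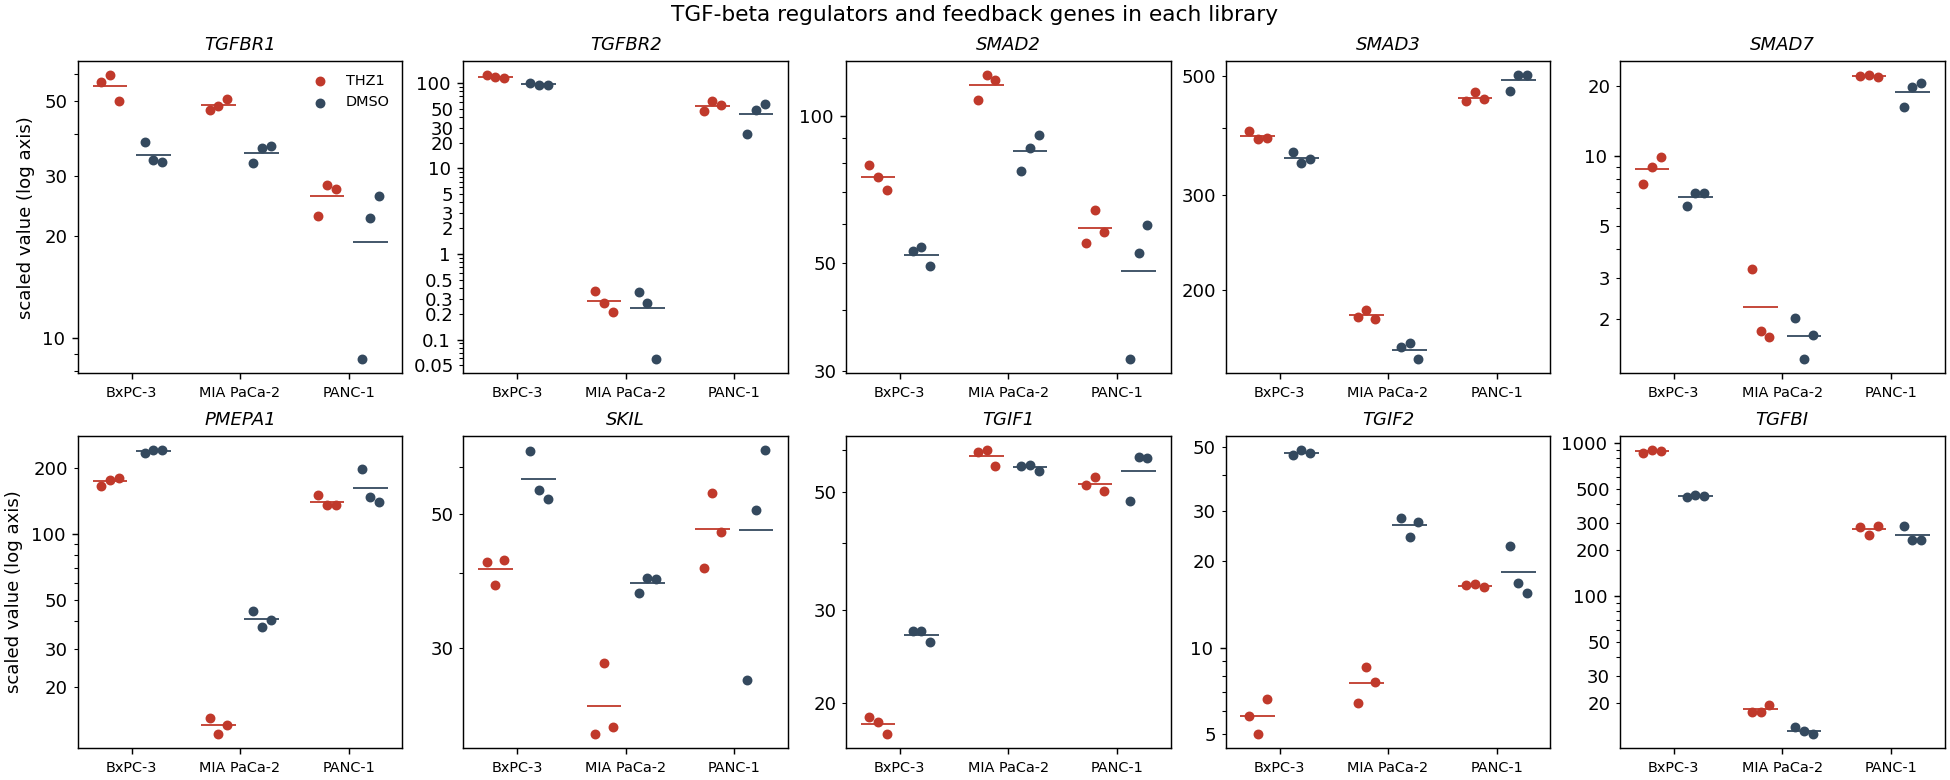
Scaled value (log axis) of each gene in each of the 18 libraries, with THZ1 points left of DMSO points in each line and horizontal marks at group means. TGIF2 shows the widest gap in BxPC-3, 5.02 to 6.62 with THZ1 against 46.9 to 48.8 with DMSO, and the PANC-1 groups overlap for 8 of the 10 genes.

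TGIF2 had the largest difference of the set. Its value was 5.76, 5.02 and 6.62 in BxPC-3 THZ1 libraries, against 46.9, 48.8 and 47.6 in DMSO libraries. The MIA PaCa-2 values were 6.41, 8.57 and 7.58 with THZ1 and 28.2, 24.4 and 27.5 with DMSO. The groups were far apart in both lines, with log2 differences of -2.85 and -1.70 (SE 0.13). In PANC-1 it was 16.5, 16.7 and 16.2 with THZ1 and 22.6, 16.9 and 15.5 with DMSO, groups that overlapped, and the difference of -0.13 was 0.02 without PANC-1 DMSO replicate 1. A readthrough transcript, TGIF2-RAB5IF in RefSeq, overlaps the gene, and how the authors' counting treated shared reads is not given in the sources used here.

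PMEPA1 was lower by the larger factor in MIA PaCa-2, where its level was already low. It had 14.5, 12.2 and 13.5 there with THZ1 and 44.5, 37.7 and 40.5 with DMSO (log2 difference -1.54, SE 0.11). In BxPC-3 it had 166, 177 and 181 with THZ1 and 235, 243 and 242 with DMSO (-0.46). Both lines were without overlap. In PANC-1 it had 151, 136 and 136 with THZ1 and 198, 147 and 141 with DMSO. Every THZ1 library but replicate 1 lay under the DMSO libraries, and the difference of -0.18 was -0.03 without PANC-1 DMSO replicate 1.

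SKIL had 41.7, 38.2 and 42.0 in BxPC-3 with THZ1 and 63.7, 54.8 and 53.0 with DMSO (log2 difference -0.48, SE 0.22). The MIA PaCa-2 values were 21.6, 28.3 and 22.2 with THZ1 and 37.1, 39.2 and 39.1 with DMSO (-0.67). All THZ1 libraries lay lower in both lines. In PANC-1 the 40.8, 54.3 and 46.7 with THZ1 lay inside the spread of 26.5, 50.8 and 64.0 with DMSO, and the difference of 0.08 turned to -0.28 without PANC-1 DMSO replicate 1.

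TGIF1 stood lower without overlap in BxPC-3 but not in the other lines. It had 18.8, 18.4 and 17.5 there with THZ1 and 27.3, 27.3 and 26.0 with DMSO (log2 difference -0.53, SE 0.08). In MIA PaCa-2 it had 59.4, 59.9 and 55.8 with THZ1 and 56.0, 56.1 and 54.7 with DMSO (0.07, but -0.15 with TMM factors and -1.20 on the ERCC scale), and in PANC-1 51.5, 53.4 and 50.0 with THZ1 and 48.0, 58.2 and 57.7 with DMSO (-0.07, or -0.16 without PANC-1 DMSO replicate 1). In both lines the groups overlapped. Whether the response differed between lines was not tested for any of the 10 genes.

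TGIF2, PMEPA1 and SKIL also share a sequence at their starts. Among 8 short motifs searched on both strands in the RefSeq promoter windows, the palindrome TGACGTCA, the cAMP response element, occurred in a window of these 3 genes and of none of the other 7. The motifs were listed once the promoters of TGIF2 and PMEPA1 had been read, so the match is a description. Windows run 250 bases before to 50 after an annotated start in GRCh38.p14, 35 of them for the 10 genes, all of which matched by symbol. The motif is in 1.85% of all 35116 windows and in at least 1 window of 2.25% of 27305 genes. The 3 windows are shown because these genes were lower with THZ1 in both BxPC-3 and MIA PaCa-2. Capitals mark TGACGTCA, the SMAD box core CAGAC and the TGIF core TGTCA, read on either strand.
TGIF2, chr20:36573347-36573646, plus strand: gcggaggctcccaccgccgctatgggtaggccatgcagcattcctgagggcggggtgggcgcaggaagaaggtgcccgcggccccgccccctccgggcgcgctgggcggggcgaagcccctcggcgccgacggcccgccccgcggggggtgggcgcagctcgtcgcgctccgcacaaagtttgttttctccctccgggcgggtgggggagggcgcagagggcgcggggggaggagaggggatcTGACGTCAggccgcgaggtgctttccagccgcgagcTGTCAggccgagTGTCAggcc
PMEPA1, chr20:57709966-57710265, minus strand: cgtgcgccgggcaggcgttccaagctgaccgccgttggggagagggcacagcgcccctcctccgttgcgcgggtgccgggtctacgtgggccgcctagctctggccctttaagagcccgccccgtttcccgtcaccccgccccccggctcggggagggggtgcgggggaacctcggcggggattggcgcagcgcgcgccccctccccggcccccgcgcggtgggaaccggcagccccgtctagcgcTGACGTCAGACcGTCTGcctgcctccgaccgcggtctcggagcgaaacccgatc
SKIL, chr3:170357465-170357764, plus strand: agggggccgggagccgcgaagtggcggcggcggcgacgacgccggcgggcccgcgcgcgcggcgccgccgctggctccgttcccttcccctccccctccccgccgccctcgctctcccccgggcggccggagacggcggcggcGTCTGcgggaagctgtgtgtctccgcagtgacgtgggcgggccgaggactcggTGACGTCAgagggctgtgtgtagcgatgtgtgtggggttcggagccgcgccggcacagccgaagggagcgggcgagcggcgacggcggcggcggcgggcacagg
The palindrome begins at position -7 of the TGIF2 start, -4 of the PMEPA1 start and -54 of the SKIL start, with the start itself at 0. In PMEPA1 it overlaps a SMAD box core. Over all matched and tested genes, the 368 with the motif were called lower with THZ1 nearly as often as the 9106 without it, 23.1% and 21.5% for BxPC-3 and 22.3% and 21.7% for MIA PaCa-2. The SMAD box core itself was in 6 of the 10 genes and in 50.0% of all genes, the TGIF core in 6 and 43.8%, the AP-1 motif TGANTCA in 3 and 9.37%, and the palindromic SMAD box GTCTAGAC in 0 and 0.256%. The GC box GGGCGG was in 9 of the 10 and 48.3% of all genes, the motif CCAAT in 6 and 39.7%, and TATAAA in 2 and 13.99%. These shares count a motif in any window, and the 10 genes had more windows per gene than all genes had. Of their 35 windows 20 held the GC box (45.0% of all windows), 12 CCAAT (34.6%) and 2 TATAAA (11.5%). The SMAD box core was in 18 (45.3%), the TGIF core in 13 (38.9%), the AP-1 motif in 5 (7.71%) and TGACGTCA in 3 (1.85%).

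In BxPC-3 the receptors and receptor-activated SMADs were higher in every THZ1 library on the deposited scale, by less than 1 log2 unit. TGFBR1 had 56.8, 59.6 and 50.1 in BxPC-3 with THZ1 and 37.9, 33.5 and 33.1 with DMSO (log2 difference 0.66, SE 0.25). MIA PaCa-2 had 47.2, 48.5 and 50.7 with THZ1 and 32.8, 36.3 and 36.8 with DMSO (0.46). Neither line overlapped, but the difference was -0.51 and -0.81 on the ERCC scale and -0.06 and -0.18 with equal totals. In PANC-1 TGFBR1 had 23.0, 28.3 and 27.6 with THZ1 and 8.68, 22.7 and 26.2 with DMSO, and the difference of 0.56 was 0.10 without PANC-1 DMSO replicate 1.

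TGFBR2 had 123, 118 and 114 in BxPC-3 with THZ1 and 99.0, 93.2 and 95.3 with DMSO (log2 difference 0.30, SE 0.20; -0.88 on the ERCC scale, -0.43 with equal totals and -0.02 with TMM factors). In PANC-1 it had 46.5, 61.9 and 54.6 with THZ1 and 25.6, 48.3 and 56.6 with DMSO, overlapping, and the difference of 0.38 was 0.05 without PANC-1 DMSO replicate 1.

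SMAD2 had 79.3, 74.8 and 70.4 in BxPC-3 with THZ1 and 52.8, 53.9 and 49.3 with DMSO (log2 difference 0.52, SE 0.16). MIA PaCa-2 had 108, 121 and 118 with THZ1 and 77.0, 85.8 and 91.4 with DMSO (0.45). Both lines were without overlap, yet the sign turned on the ERCC scale (-0.65 and -0.83) and with equal totals (-0.20 and -0.19). In PANC-1 SMAD2 had 55.0, 64.1 and 57.8 with THZ1 and 31.7, 52.4 and 59.9 with DMSO, with a difference of 0.34, or 0.07 without PANC-1 DMSO replicate 1.

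SMAD3 differed little between treatments. In BxPC-3 it had 394, 382 and 383 with THZ1 and 361, 344 and 349.7 with DMSO (log2 difference 0.14, SE 0.06), and in MIA PaCa-2 178, 184 and 177 with THZ1 and 157, 159 and 149 with DMSO (0.21). In PANC-1 it had 448, 465 and 452 with THZ1 and 469, 501 and 501 with DMSO (-0.11, or -0.14 without PANC-1 DMSO replicate 1). The libraries did not overlap in any line, with THZ1 higher in BxPC-3 and MIA PaCa-2 and lower in PANC-1. The BxPC-3 and MIA PaCa-2 differences were under those of the median gene or close to it, and they turned to -1.05 and -1.07 on the ERCC scale and to -0.59 and -0.43 with equal totals, and the BxPC-3 difference was -0.18 with TMM factors.

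SMAD7, the inhibitory SMAD, was the gene that stood higher without overlap in PANC-1, at 22.1, 22.2 and 21.8 with THZ1 and 16.3, 19.8 and 20.7 with DMSO (log2 difference 0.22, SE 0.16, or 0.12 without PANC-1 DMSO replicate 1). In BxPC-3 it had 7.63, 8.96 and 9.93 with THZ1 and 6.11, 6.95 and 6.97 with DMSO (0.35), without overlap. In MIA PaCa-2 it had 3.30, 1.79 and 1.68 with THZ1 and 2.02, 1.35 and 1.71 with DMSO (0.25), overlapping. On the ERCC scale the differences were -0.68 in BxPC-3, -0.06 in PANC-1 and -0.61 in MIA PaCa-2. The direction of SMAD7 was thus opposite to that of PMEPA1 and SKIL in BxPC-3 on the deposited scale and the same as theirs on the ERCC scale.

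TGFBI, the target gene of the set, had 852, 899 and 889 in BxPC-3 with THZ1 and 445, 457 and 452 with DMSO (log2 difference 0.96, SE 0.08). MIA PaCa-2 had 17.7, 17.6 and 19.5 with THZ1 and 13.9, 13.2 and 12.7 with DMSO (0.43). All THZ1 libraries were higher in both lines. On the ERCC scale the differences were -0.23 and -0.78, and with equal totals 0.23 and -0.18. In PANC-1 the gene had 281, 252 and 286 with THZ1 and 285, 233 and 232 with DMSO, overlapping (0.13, or 0.23 without PANC-1 DMSO replicate 1).

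**Figure D3:**
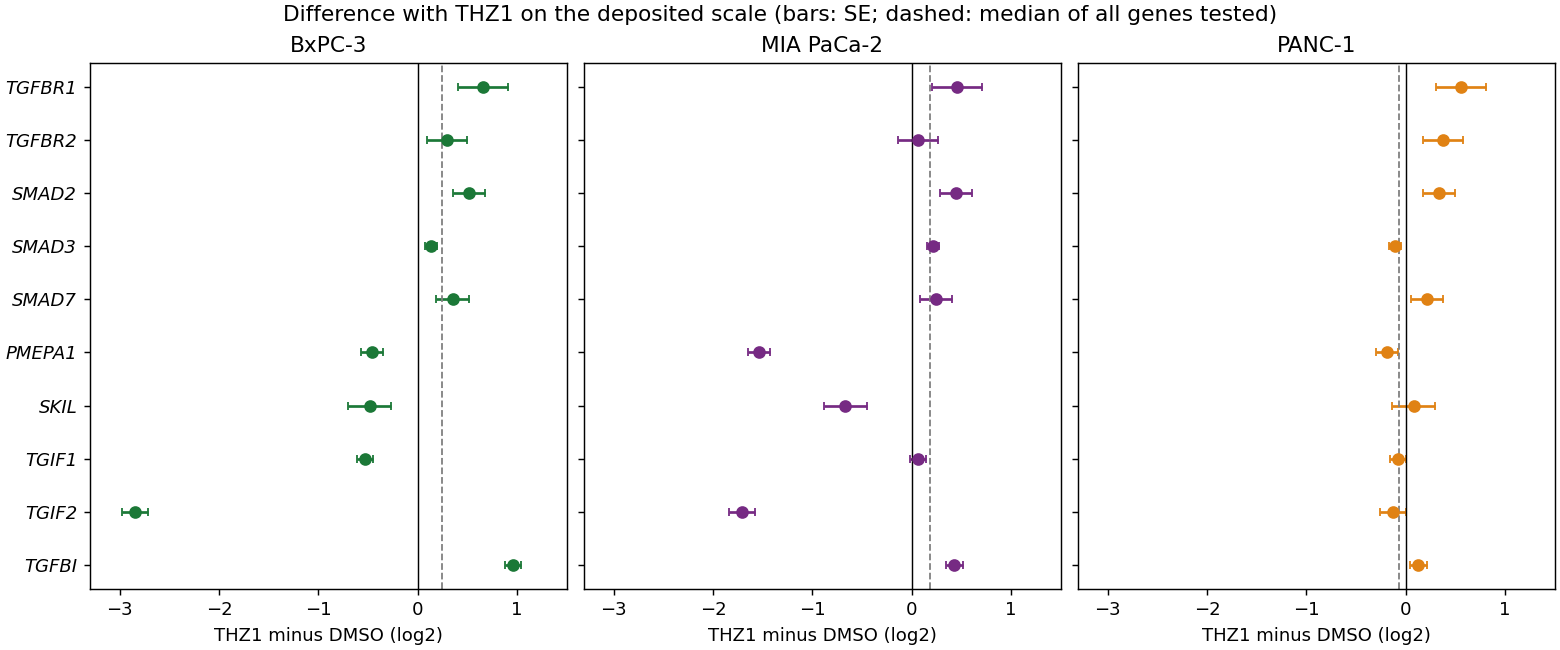
THZ1 minus DMSO difference in log2(value + 1) on the deposited scale for each gene and line, with bars for the SE of the fit and a dashed line at the median of all tested genes. TGIF2 lies at -2.85 in BxPC-3 and at -1.70 in MIA PaCa-2, PMEPA1 at -1.54 in MIA PaCa-2, while TGFBI lies at 0.96 in BxPC-3.

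Which genes were lower did not depend on the scale for TGIF2, PMEPA1 and SKIL. Under 6 scalings of the libraries, TGIF2 lay between -3.87 and -2.80 in BxPC-3 and between -2.89 and -1.67 in MIA PaCa-2. PMEPA1 lay between -1.64 and -0.40 in BxPC-3 and between -2.77 and -1.51 in MIA PaCa-2, and SKIL between -1.64 and -0.42 and between -1.91 and -0.63. TGIF1 was lower under all 6 in BxPC-3 only, from -1.65 to -0.48. Each of the other 6 genes changed sign in at least 1 of these 2 lines. In PANC-1 the ERCC scale turned the sign of SKIL (-0.20) and TGFBI (-0.15) as well.

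**Figure D4:**
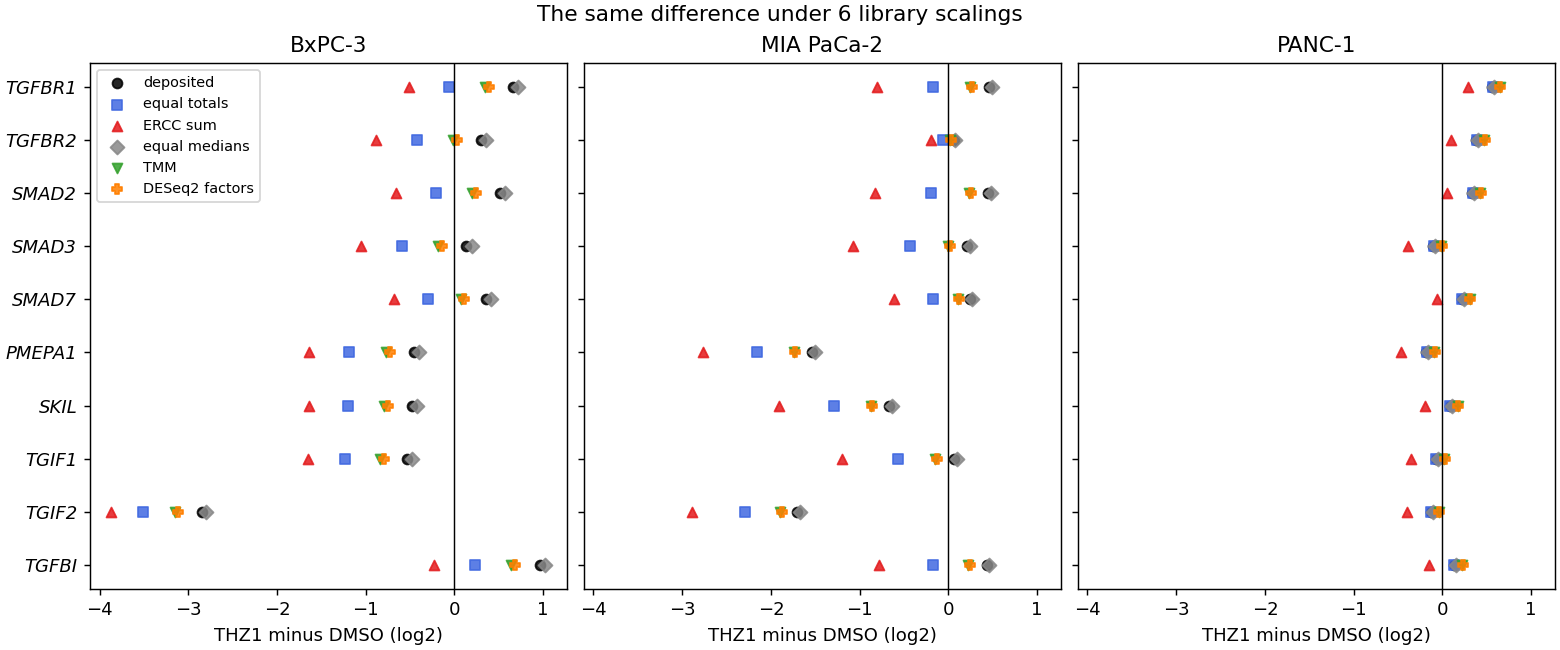
THZ1 minus DMSO difference in log2(value + 1) for each gene and line under 6 scalings of the libraries, marked by symbol. TGIF2, PMEPA1 and SKIL stay below 0 in BxPC-3 and MIA PaCa-2 under every scaling, and the ERCC scaling, with triangles, lies lowest.

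Over all 18 libraries, the genes most like TGIF2 were ZNF319, ZNF740, RPUSD2, TEF and ZSCAN25. Likeness is the root mean square difference of the 2 genes in log2(value + 1), each centred on its own mean, and it was 0.24, 0.24, 0.25, 0.27 and 0.29 for these genes, of 10732 compared. ZNF740, for example, averaged 7.07 with THZ1 and 46.2 with DMSO in BxPC-3. Its means were 9.91 and 31.4 in MIA PaCa-2, and 18.1 and 26.5 in PANC-1. The genes nearest PMEPA1 were farther from it: CDIP1, KANK1, MAMLD1, SGK223 and SLC2A8, at 0.35, 0.37, 0.40, 0.41 and 0.42. All 5 had their lowest means in MIA PaCa-2, and KANK1, MAMLD1 and SGK223 were lower with THZ1 in both BxPC-3 and MIA PaCa-2, as PMEPA1 was. CDIP1, the nearest, averaged 2.40 with THZ1 and 4.92 with DMSO in MIA PaCa-2, but 45.3 and 40.0 in BxPC-3 and 29.8 and 37.1 in PANC-1.

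The response of the rest of the pathway was tested in 88 other genes from 6 lists of ligands, receptors, SMADs, regulators and targets. Of 111 genes listed, 89 had values and 88 passed the filter. The lists were drawn up with earlier results of these data known. Their counts and p-values therefore describe the genes listed and are no independent test of the pathway. In BxPC-3, 43 rose and 10 fell with THZ1 by limma with adjustment over all genes, where 40.0% of all tested genes rose and 18.9% fell, 59.0% in either direction. In MIA PaCa-2 31 rose and 19 fell, against 36.5% and 19.8% of all genes, 56.3% in either direction. In PANC-1 0 genes of the lists rose and 1 fell, where 0.274% of all genes rose and 0.228% fell, 0.501% together. At an unadjusted p under 0.05, 12 were higher and 16 lower there, with no share of all genes at hand to set beside them. Higher and lower calls were 1 and 0 with edgeR and 4 and 3 with DESeq2, where 19 and 691 of all genes were called. Without PANC-1 DMSO replicate 1, limma called 9 higher and 2 lower in PANC-1, with 854 and 205 over all genes. Without DMSO replicate 2 it called 5 and 4 there, with 857 of 15340 genes called in either direction. Without DMSO replicate 3 it called 10 and 9, with 3340 of 15344. The response differed between lines for 50 of the 88 genes by the F-test, and for 50.6% of all genes. On the ERCC scale the split turned to 3 higher and 50 lower in BxPC-3 and to 3 and 66 in MIA PaCa-2, and with equal totals to 14 and 30 and to 10 and 39. Over all genes in either direction, 9363 and 11663 of 15498 were called in these lines on the ERCC scale. With equal totals 8023 and 8064 of 15368 were called, and the median of all genes was -0.30 and -0.31. As the median of all genes turned too, nothing about the pathway is read from this split.

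**Figure D5:**
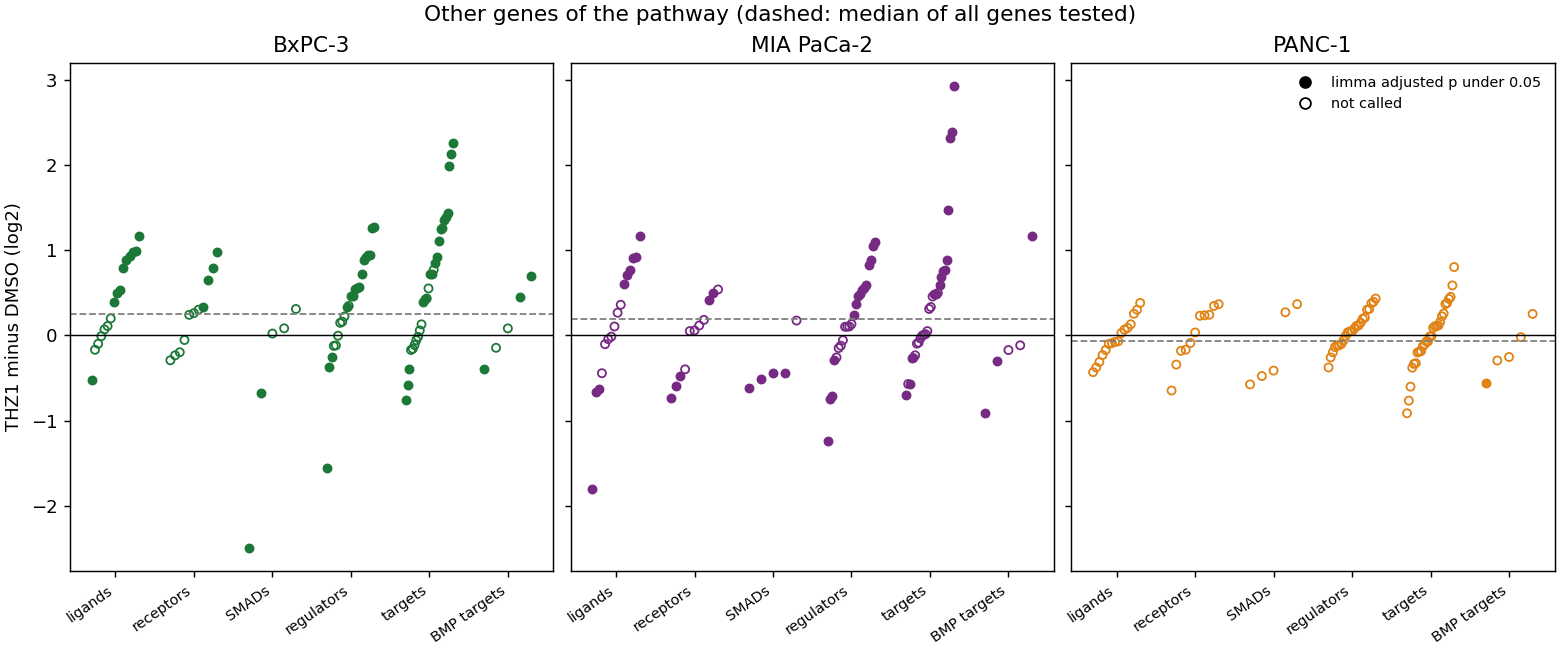
THZ1 minus DMSO difference in log2(value + 1) of the 88 other pathway genes by list and line, with filled points for a limma adjusted p under 0.05 and a dashed line at the median of all tested genes. Most called genes lie above 0 in BxPC-3 (43 of 53), and the PANC-1 points are nearly all open.

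Of 16 ligands and their binding proteins, 9 rose and 1 fell in BxPC-3, and 6 rose and 3 fell in MIA PaCa-2. Their median difference was -0.07 in PANC-1, against 0.19 in MIA PaCa-2 and 0.44 in BxPC-3. TGFB1, the main ligand, had 501 ± 17.2 with THZ1 and 222 ± 9.87 with DMSO in BxPC-3 (SD, n = 3 each), and 114 ± 3.68 and 50.3 ± 1.80 in MIA PaCa-2. It rose in both (1.17 and 1.16, SE 0.18, limma adjusted p = 2.62e-05 and 3.34e-05), but lay at -0.02 and -0.11 on the ERCC scale. LTBP2, a latent TGF-beta binding protein of the matrix, had 24.1 ± 1.27 with THZ1 and 86.4 ± 1.68 with DMSO in MIA PaCa-2 and fell there (-1.80, SE 0.07, adjusted p = 4.03e-11). It rose in BxPC-3 by 0.50 (adjusted p = 1.86e-05), which turned to -0.61 on the ERCC scale and to -0.19 with equal totals and was not called with TMM factors (0.20, adjusted p = 0.142). Its relatives LTBP1 and LTBP3 rose in both lines on the deposited scale, LTBP1 by 0.99 and 0.60 and LTBP3 by 0.98 and 0.92 in BxPC-3 and MIA PaCa-2. Both were below 0 on the ERCC scale, neither was called with equal totals, and LTBP1 was not called in MIA PaCa-2 with TMM factors (0.42, adjusted p = 0.0709). BMP8B, a BMP ligand, fell in MIA PaCa-2 (-0.67, adjusted p = 6.11e-04), and TGFB3 in BxPC-3 (-0.53, adjusted p = 0.0403). The TGFB3 call was lost without BxPC-3 DMSO replicate 1 or 3 or BxPC-3 THZ1 replicate 1 or 3, where the adjusted p was 0.156, 0.0756, 0.0608 and 0.143.

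Of 11 other receptors, 4 rose and 0 fell in BxPC-3, and 2 rose and 3 fell in MIA PaCa-2. TGFBR3, the co-receptor betaglycan, rose in both (0.98 and 0.42, SE 0.13, limma adjusted p = 6.09e-06 and 0.00986), with ERCC values of -0.17 and -0.84 and, in MIA PaCa-2, no call with TMM factors (0.21, adjusted p = 0.0928). ACVR1B, an activin receptor that also acts on SMAD2 and SMAD3, rose by 0.34 in BxPC-3 (adjusted p = 0.00152, with -0.83 on the ERCC scale, -0.38 with equal totals and no call at 0.025 with TMM factors) and fell by 0.73 in MIA PaCa-2 (adjusted p = 9.98e-07). ACVR1 rose by 0.79 in BxPC-3 and ACVR2A by 0.50 in MIA PaCa-2 and 0.65 in BxPC-3. All 3 turned negative on the ERCC scale, at -0.37, -0.61 and -0.40, and none was called with equal totals or with TMM factors (adjusted p = 0.103, 0.149 and 0.0851 with TMM). ACVR2B and BMPR1A fell in MIA PaCa-2 (-0.48 and -0.59, adjusted p = 0.00238 and 0.0372). The BMPR1A call was lost without any of the 3 MIA PaCa-2 DMSO replicates (adjusted p = 0.0638, 0.0739 and 0.0948 for replicates 1, 2 and 3) or without MIA PaCa-2 THZ1 replicate 1 (0.108) or 3 (0.083).

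Of the 5 other SMADs, 0 rose and 2 fell in BxPC-3, and 0 rose and 4 fell in MIA PaCa-2. None was called in PANC-1, where 3 were lower at an unadjusted p under 0.05, edgeR and DESeq2 called 0, and limma called 0 without PANC-1 DMSO replicate 1. SMAD6, the inhibitory SMAD of the BMP branch, had 1.23 ± 0.521 with THZ1 and 11.3 ± 0.667 with DMSO in BxPC-3 and fell there (-2.49, SE 0.17, limma adjusted p = 4.25e-09). In MIA PaCa-2 it had 6.14 ± 1.07 with THZ1 and 8.67 ± 0.660 with DMSO (-0.45, adjusted p = 0.0332), a call lost without MIA PaCa-2 DMSO replicate 1 (0.104) or 3 (0.066) or THZ1 replicate 2 (0.157). SMAD1, a carrier of BMP signals, fell in both lines (-0.67 and -0.62, adjusted p = 0.00148 and 0.00299). SMAD9 fell in MIA PaCa-2 (-0.52, adjusted p = 0.0115), a call lost without MIA PaCa-2 THZ1 replicate 1 (0.0542). SMAD4 fell there too (-0.44, adjusted p = 0.0451), with 48.4, 47.4 and 39.5 with THZ1 and 62.1, 60.4 and 61.9 with DMSO, but in 15 of 18 fits with a library left out its adjusted p was above 0.05. SMAD5 had no call, at 0.17 in MIA PaCa-2 and at 0.31 in BxPC-3. With only the groups compared it was called higher in BxPC-3 (adjusted p = 1.29e-04) and in MIA PaCa-2 (adjusted p = 0.0387). It was also called higher in BxPC-3 without PANC-1 DMSO replicate 1 (adjusted p = 0.0267). On the ERCC scale it was called lower in BxPC-3 (-0.86, adjusted p = 0.0324) and in MIA PaCa-2 (-1.11, adjusted p = 0.00587).

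Of 23 other regulators, 13 rose and 3 fell in BxPC-3, and 11 rose and 4 fell in MIA PaCa-2. RNF111, the ubiquitin ligase Arkadia that targets SMAD7 and SKIL for degradation, had 12.1 ± 1.36 with THZ1 and 37.6 ± 1.92 with DMSO in BxPC-3, and 9.52 ± 0.245 and 23.8 ± 1.51 in MIA PaCa-2. It fell in both (-1.56 and -1.24, SE 0.19, limma adjusted p = 3.44e-06 and 4.69e-05). SKI, a co-repressor related to SKIL, fell as well (-0.37 and -0.29, adjusted p = 0.00241 and 0.0136). In MIA PaCa-2 its adjusted p was 0.0518 and 0.0505 without THZ1 replicates 2 and 3. EP300, a SMAD coactivator, fell by 0.26 and 0.75 (adjusted p = 0.00767 and 4.67e-07). FKBP1A, which holds the type I receptor inactive, rose by 1.27 and 1.05 (adjusted p = 3.91e-08 and 4.88e-07), and the deacetylase HDAC1 by 1.26 and 1.10 (adjusted p = 6.45e-10 and 3.98e-09). On the ERCC scale these were 0.08 and -0.24 for FKBP1A and 0.07 and -0.20 for HDAC1. STRAP, which stabilises SMAD7 at the receptor, rose by 0.92 and 0.89, with ERCC values of -0.27 and -0.40 and no call with equal totals.

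Of 28 other target genes, 15 rose and 3 fell in BxPC-3, and 11 rose and 3 fell in MIA PaCa-2, with medians of 0.32 in MIA PaCa-2 and 0.63 in BxPC-3, and of -0.01 in PANC-1. JUNB, an AP-1 subunit and immediate early gene, had 530.1 ± 25.4 with THZ1 and 109.9 ± 3.53 with DMSO in BxPC-3, and 313 ± 11.0 and 58.9 ± 2.82 in MIA PaCa-2. It rose by 2.26 and 2.39 (SE 0.14, limma adjusted p = 1.50e-09 and 2.05e-09), and by 1.07 and 1.11 on the ERCC scale. GADD45B, a stress gene, rose by 2.14 in BxPC-3 and by 2.93 in MIA PaCa-2 (SE 0.10, adjusted p = 1.40e-10 and 6.99e-12), and by 0.99 and 1.66 on the ERCC scale. CTGF, a secreted matricellular protein, had 121 ± 12.1 with THZ1 and 23.3 ± 0.220 with DMSO in MIA PaCa-2 and rose by 2.32 (adjusted p = 2.29e-08). In BxPC-3, where it was low, it rose by 0.92 (adjusted p = 2.63e-04), a call lost on the ERCC scale (0.07) and with equal totals (0.40). JUNB, GADD45B and CTGF are also induced by other stimuli, and JUNB had 73.7 ± 6.12 with THZ1 and 55.0 ± 16.6 with DMSO in PANC-1, with no call there (0.45, adjusted p = 0.109), but a call with TMM factors (0.55, adjusted p = 0.0186) and without PANC-1 DMSO replicate 1 (0.68, adjusted p = 1.96e-06). ANGPTL4 fell in MIA PaCa-2 (-0.70, adjusted p = 0.00934) and PDGFB in BxPC-3 (-0.59, adjusted p = 0.00401). FN1, the matrix protein fibronectin, had no call in any line at the deposited scaling, at 39.2 ± 4.01 with THZ1 and 26.4 ± 1.55 with DMSO in BxPC-3. It ran from 3.17 to 12.8 in PANC-1 DMSO libraries. Without PANC-1 DMSO replicate 1 it was called higher in BxPC-3 (0.55, adjusted p = 2.45e-04) and lower in MIA PaCa-2 (-0.57, adjusted p = 1.77e-04). On the ERCC scale the BxPC-3 difference was -0.60 (adjusted p = 0.0646). In PANC-1 FN1 lay at -0.91, at -0.37 without DMSO replicate 1 (adjusted p = 0.0986), at -1.23 without replicate 2 (adjusted p = 0.0361) and at -1.15 without replicate 3 (adjusted p = 0.0296).

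Of 5 BMP target genes, 2 rose and 1 fell in BxPC-3, 1 rose and 2 fell in MIA PaCa-2, and 1 fell in PANC-1. ID3, an inhibitor of helix-loop-helix factors, had 155 ± 2.56 with THZ1 and 292 ± 8.03 with DMSO in MIA PaCa-2 and fell (-0.91, SE 0.12, limma adjusted p = 6.57e-06). In BxPC-3 it rose by 0.45 (adjusted p = 0.0037) at low values, and turned to -0.55 on the ERCC scale and -0.18 with equal totals, with no call under TMM factors (0.17, adjusted p = 0.175). It was the gene that fell in PANC-1 (-0.55, adjusted p = 0.0499), a call lost in 15 of 18 fits with a library left out. ID1 fell in MIA PaCa-2 (-0.30, adjusted p = 0.00708). MSX2 fell in BxPC-3 (-0.39, adjusted p = 0.0302), a call lost without BxPC-3 DMSO replicate 2 (0.0917) or 3 (0.0744) or THZ1 replicate 1 (0.0637) or 2 (0.088). HES1 rose in BxPC-3 and MIA PaCa-2 (0.70 and 1.17, adjusted p = 2.12e-04 and 1.32e-06), with ERCC values of -0.48 and -0.08.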

How the data were processed

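RNA from cultured cells of 3 lines was sequenced from stranded libraries of polyadenylated RNA, with ERCC RNA added to the extracted total RNA, per the labels' protocols. STAR and the build hg19 are named in the submitters' processing notes. The counting program with its strand setting, the filters and the annotation were not named in the sources used here. In the table that the authors deposited, the library columns hold a signal, each value being a read count over a divisor fixed for the library. Multiplied back, 100% of values came out whole within 0.001. The recovered counts were at least 1 in every library for every gene, and 57.8 to 58.5% of the rows of the deposited table were below 1 in each library. The deposited columns of log2 ratios and log2 means, and the authors' score of their SD, were not used for tests.

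Values were multiplied by 17.7 (mean library sum 1000000), and genes at 1 or more in at least 3 libraries were tested with limma 3.58.1 in R 4.3.3 (trend, pseudocount 1, 6 group means, Benjamini-Hochberg threshold 0.05). The fit was tested on simulated data. The edgeR 4.0.16 and DESeq2 1.42.0 fits of recovered counts, run as alternatives, called 8219 and 8374 genes in MIA PaCa-2, 8502 and 8700 in BxPC-3 and 19 and 691 in PANC-1. Other alternatives were 5 library scalings, other pseudocounts and filters, no trend, the compared groups alone, the replicate block and each library left out. Intervals of read ratios are exact and cover counting error only, since no molecular identifiers are reported. The labels do not say whether the 3 libraries of a group came from separate cultures, so a p-value here reflects the spread among libraries, which may be technical.

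The 10 genes and the lists were chosen with earlier results of these data known. Named from each list were the 3 highest and 3 lowest mean differences over the lines (all in lists of up to 6), and for TGIF2 and PMEPA1 the 5 most alike genes. Summed over 4 of 7 fibroblast markers, values were 339 to 342 with THZ1 and 168.5 to 173 with DMSO in MIA PaCa-2 (mostly COL3A1), 14.4 to 19.2 and 10.05 to 10.7 in BxPC-3, and 22.9 to 30.4 and 24.4 to 66.5 in PANC-1. The 1 leukocyte marker of 5 and the 1 endothelial marker of 4 in the table reached at most 3.04 and 6.79. The other listed genes were not analysed here. Promoters come from RefSeq (GRCh38.p14), and transcript lengths from a GENCODE annotation.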

Additional observations from a re-analysis of the deposited data

Results flagged for a closer look

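For 20 of the named pathway genes the THZ1 response itself differed between lines by limma's F-test, adjusted over all genes. The gap between the lines with the highest and lowest response, on the log2 scale, follows. In BxPC-3 minus PANC-1 it was 1.25 for TGFB1, 1.08 for LTBP3, 0.94 for TGFBR3, 0.66 for SMAD9, 0.52 for STRAP, 1.20 for FKBP1A, 0.95 for HDAC1 and 1.47 for FN1. In BxPC-3 minus MIA PaCa-2 it was 0.66 for BMP8B, 2.29 for LTBP2, 1.07 for ACVR1B and 1.35 for ID3. In MIA PaCa-2 minus PANC-1 it was 2.20 for CTGF, 1.94 for JUNB, 2.70 for GADD45B and 1.19 for HES1. In PANC-1 minus BxPC-3 it was 1.60 for RNF111 and 0.65 for MSX2, in PANC-1 minus MIA PaCa-2 0.61 for EP300, and in MIA PaCa-2 minus BxPC-3 2.04 for SMAD6.

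The adjusted p of this F-test was smallest for LTBP2 (1.15e-09) and GADD45B (1.47e-08) among these genes, and it was 0.0429 for MSX2. SMAD3 was higher in every THZ1 library of MIA PaCa-2 and lower in every THZ1 library of PANC-1, a gap of 0.32 that was not tested. For FN1 the PANC-1 response of -0.91 was -0.37 without PANC-1 DMSO replicate 1, and its gap of 1.47 uses all 3 DMSO libraries. The other gaps with PANC-1 use all 3 as well. Without that library the PANC-1 response went from -0.10 to 0.28 for LTBP3, from 0.04 to -0.27 for RNF111 and from 0.31 to 0.24 for HDAC1. SMAD9 had only 17 reads with THZ1 and 22 with DMSO in BxPC-3, which limits its response there on the log2(value + 1) scale.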

How the results depend on the processing

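The counts of called pathway genes changed with the scale of the libraries and, in PANC-1, with single libraries. In BxPC-3, higher and lower calls were 14 and 30 with equal totals and 3 and 50 on the ERCC scale, and lower calls were 16 with TMM factors, DESeq2 factors, edgeR and DESeq2. In MIA PaCa-2 they were 10 and 39 with equal totals and 3 and 66 on the ERCC scale. Over all genes in either direction, 8023 and 8064 of 15368 were called with equal totals in BxPC-3 and MIA PaCa-2. On the ERCC scale 9363 and 11663 of 15498 were called. In BxPC-3, TMM factors called 8255 genes and DESeq2 factors 8298. In PANC-1, higher calls were 1 with equal totals, TMM factors, DESeq2 factors, a pseudocount of 5 and edgeR, 2 with equal medians and a filter of 5, and 4 with DESeq2. Calls over all genes in PANC-1 were 173 with equal totals, 30 with TMM factors, 18 with DESeq2 factors and 145 with a pseudocount of 5. With equal medians there were 142 and with a filter of 5 there were 144. Lower calls of pathway genes in PANC-1 were 21 on the ERCC scale, where 2855 of 15498 genes were called in either direction, and 3 with DESeq2. They were 0 with TMM factors, DESeq2 factors, a pseudocount of 0.5, no filter, no trend, only the groups compared, edgeR and the replicate block. Leaving out 1 library gave 39 to 51 higher and 8 to 14 lower calls in BxPC-3, 29 to 37 and 16 to 25 in MIA PaCa-2, and 0 to 10 and 0 to 9 in PANC-1.

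The median difference of the 10 genes in BxPC-3 was -0.51 with equal totals, -0.97 on the ERCC scale, -0.10 with TMM factors and edgeR and -0.056 with DESeq2 factors and DESeq2. In MIA PaCa-2 it was -0.31, -0.95, 0.0078 (TMM factors), -0.010 (edgeR), 0.019 (DESeq2 factors) and 0.016 (DESeq2). Named genes called in the report's fit or on the ERCC scale, with opposite signs in the 2, had these ERCC values in BxPC-3: TGFB1 (-0.016), LTBP1 (-0.19), LTBP2 (-0.61), LTBP3 (-0.20), ACVR1 (-0.37), ACVR1B (-0.83), ACVR2A (-0.40), TGFBR3 (-0.17), SMAD5 (-0.86), STRAP (-0.27), ID3 (-0.55) and HES1 (-0.48). In MIA PaCa-2 these were TGFB1 (-0.11), LTBP1 (-0.45), LTBP3 (-0.35), ACVR1 (-0.97), ACVR2A (-0.61), TGFBR3 (-0.84), SMAD5 (-1.11), STRAP (-0.40), FKBP1A (-0.24), HDAC1 (-0.20) and HES1 (-0.079). With equal totals the reversed values were -0.19 for LTBP2, -0.38 for ACVR1B, -0.18 for ID3 and -0.025 for HES1 in BxPC-3, and -0.055 for ACVR2A and -0.21 for TGFBR3 in MIA PaCa-2. With 1 library left out, TGFB1 in PANC-1 ran from -0.26 without PANC-1 DMSO replicate 3 to 0.24 without replicate 1 (adjusted p = 0.047). The cause of these shifts was not tested. Over the 34 named pathway genes in 3 lines, 3040 values under alternatives kept their call or had none in either fit. Of the rest, 106 lost a call, 88 gained one and 30 changed sign with a call in at least 1 of the 2 fits. Of the DMSO differences, 1043 kept their call or had none in either fit, 11 lost a call and 2 gained one. Without a test, 921 values of the 10 genes with THZ1 moved by less than the replicate spread and 135 by more. SMAD4 kept all 3 differences between lines under every alternative run.

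The deviations of same-numbered THZ1 and DMSO libraries had correlations of -0.03 to 0.45, and those of differently numbered ones -0.51 to 0.50. These values do not settle whether equal numbers mark a pairing. With the replicate block 8967 genes were called in MIA PaCa-2, 9347 in BxPC-3 and 7 in PANC-1, where the fit without it called 8640, 9055 and 77. It ended the ID3 call in PANC-1, gave one for TGFB3 in MIA PaCa-2 (-0.44, adjusted p = 0.0249) and changed no DMSO call of the 10 genes. A single read stands for up to 0.158 of a scaled unit, which limits TGFBR2 in MIA PaCa-2 and SMAD4 in BxPC-3.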

Other observations

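Genes that lie near TGFBR2 in RefSeq's order were not all low in MIA PaCa-2. Its neighbour STT3B, a subunit of the oligosaccharyltransferase, averaged 199 with THZ1 and 117 with DMSO there, and OSBPL10, an oxysterol-binding protein gene next to it, averaged 1.79 and 1.26. OSBPL10 averaged 52.0 with THZ1 and 32.0 with DMSO in BxPC-3 and 52.8 and 46.0 in PANC-1. On the other side of TGFBR2, RBMS3 averaged 9.98 with THZ1 and 6.74 with DMSO in MIA PaCa-2. It averaged 6.12 and 3.29 in BxPC-3 and 0.464 and 1.275 in PANC-1. ZCWPW2, on that side too, averaged at most 0.744 in any group. GADL1, directly beside TGFBR2, and ZNF860 had no values. These genes were picked for their place and their values are a description. Near SMAD4, the methyl-CpG binding protein gene MBD2, 4 places away, averaged 106 with THZ1 and 83.8 with DMSO in BxPC-3. SMAD4 itself had 6 and 8 reads there in all. DCC, 2 places away on the same side, had 17 reads in each of these groups and averaged at most 2.23 in the other lines. The genes directly beside SMAD4, ELAC1 and MEX3C, had no values, nor had ME2, MRO and MAPK4, so most of this region was not seen.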
